A study of Mus musculus with 15 samples.

Results

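The effect of ancestral methamphetamine that was common to both generations of descendants was measured in the striatum, over 15 of the 15 RNA libraries of the study. Of these, 7 came from the line of founder males treated with methamphetamine (METH), a stimulant drug, and 8 from the line of saline-treated males. Sons (F1) gave 4 saline and 3 METH libraries and grandsons (F2) gave 4 and 4, joined over the 2 deposited tables by gene ID. All were from male wild-type mice of the outbred ICR stock, taken at 7 weeks of age. The founders were 6 weeks old when subcutaneous dosing began, with METH at 5 mg/kg or saline at 10 mL/kg for 21 days, and were then paired with untreated females. The F2 were fathered by F1 males, again with untreated females. Generation was kept as a block in the fit, so METH mice were set against saline mice of their own generation, and 1 difference was estimated for both. Which animals share a litter or a founder is not given, so p-values measure only the spread between these animals.

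The striatum is the main input nucleus of the basal ganglia, and most of its neurons are GABAergic spiny projection neurons that carry dopamine D1 or D2 receptors. METH enters dopamine terminals and drives dopamine out through its transporter. The results below turn most on the genes of molecular chaperones, so their biology is set out first. Chaperones fold new and damaged proteins: HSP70 and HSP90 proteins act in the cytosol with J-domain and other co-chaperones, a related set works in the endoplasmic reticulum, and the ring-shaped TRiC/CCT and HSP60 complexes enclose their clients. Many are switched on by the transcription factor HSF1, which binds inverted repeats of the unit NGAAN in heat shock elements.

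The bases before the start sites of 4 chaperone genes are shown because these genes lay lower in METH mice and differ in whether the window holds such repeats. The letters searched were GAANNTTC and TTCNNGAA, each of which reads the same on both strands, and matches are in capitals. Each window is the 250 bases before a RefSeq start in build GRCm38.p6, read 5′ to 3′ on the strand of the gene: Hspa1b at chr17:34959239-34959488 (minus strand), Fkbp4 at chr6:128438657-128438906 (minus strand), Hspe1 at chr1:55087898-55088147 (plus strand) and Stip1 at chr19:7040027-7040276 (minus strand).
Hspa1b: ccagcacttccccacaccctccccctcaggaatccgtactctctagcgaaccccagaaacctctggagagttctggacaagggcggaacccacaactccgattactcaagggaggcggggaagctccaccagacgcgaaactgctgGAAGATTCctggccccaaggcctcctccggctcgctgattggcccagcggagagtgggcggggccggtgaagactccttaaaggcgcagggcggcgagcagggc
Fkbp4: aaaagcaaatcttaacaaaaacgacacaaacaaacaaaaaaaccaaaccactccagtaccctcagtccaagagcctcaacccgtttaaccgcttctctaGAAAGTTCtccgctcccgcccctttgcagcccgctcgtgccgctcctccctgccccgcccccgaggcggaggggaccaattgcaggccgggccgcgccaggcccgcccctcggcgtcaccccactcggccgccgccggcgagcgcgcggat
Hspe1: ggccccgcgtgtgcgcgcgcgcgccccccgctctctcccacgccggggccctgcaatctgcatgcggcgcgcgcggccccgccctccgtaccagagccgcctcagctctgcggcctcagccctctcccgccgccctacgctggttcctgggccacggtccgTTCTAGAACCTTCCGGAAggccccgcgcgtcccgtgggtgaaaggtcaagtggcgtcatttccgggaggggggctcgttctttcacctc
Stip1: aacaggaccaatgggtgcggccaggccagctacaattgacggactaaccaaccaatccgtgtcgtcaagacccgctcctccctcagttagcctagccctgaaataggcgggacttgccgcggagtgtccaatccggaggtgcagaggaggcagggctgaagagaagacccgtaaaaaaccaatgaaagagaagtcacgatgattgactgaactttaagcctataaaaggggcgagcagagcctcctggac
The match began 104 bases before the start in Hspa1b, an inducible HSP70, and 151 bases before it in Fkbp4, an HSP90 co-chaperone. In Hspe1, the partner of HSP60, 3 overlapping matches began 89 to 79 bases before the start. Stip1, which hands clients from HSP70 to HSP90, had no match in this window. Of 40 chaperone genes tested, 33 had a promoter sequence available, and 12 of these 33 (36.4%) held either motif before at least 1 start. Hspa8, Hsp90aa1 and Hsp90ab1 were among those without a sequence and are not in these shares. The share was 12.6% over 14132 tested genes with such a sequence and 14.5% over all 27025 genes with one. By start site the shares were 13 of 44 (29.5%) for the chaperones and 12.8% of all 32851 (GAANNTTC 6.69%, TTCNNGAA 7.17%). These shares are a description of the letters and were not tested.

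Total counts ran from 31563806 to 50573906 per library. Levels are given as CPM, the usual scaling of counts by the TMM-adjusted library total. Slc17a7, the glutamate transporter of cortical neurons, ran from 9.41 to 529 CPM. The libraries above 100 CPM were replicates 1 and 3 of F1 saline, 3 of F1 METH, 4 of F2 saline and 2 of F2 METH mice. The labels name the cell type as neuronal, but the astrocyte, myelin and microglia lists were measured in these tissue libraries at 20 of 20, 23 of 23 and 20 of 20 genes.

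No gene passed the test of the common effect. Of 45777 features, 19308 had enough counts to be tested, and 0 of them (0%) reached an adjusted p under 0.05 in edgeR's quasi-likelihood test, where the smallest adjusted p was 0.962. Without adjustment, 915 genes (4.74%) had a p under 0.05, of which 374 (1.94%) were higher and 541 (2.8%) lower in METH mice. DESeq2 called 3 genes on the same counts, limma-voom 0, and a 4-group edgeR fit that averaged the F1 and F2 effects called 1 (0.00518%). The 3 genes of DESeq2 were the long noncoding RNA B230110G15Rik and the pseudogenes Gm8518 and Gm17879. The single gene of the averaged fit was Aox4, an aldehyde oxidase, with an average log2 fold change of -3.77 (SE 0.47, adjusted p = 0.0355 by edgeR). The size of that average and its SE depend on the small count added to the F1 METH libraries, which had 0 reads of it. These 4 genes were singled out after their values were seen.

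The precision of the comparison was set by the spread between animals. The median SE of a log2 fold change was 0.11, and the median log2 fold change was -0.01 (interquartile range -0.09 to 0.07). The 95% interval lay within a 1.5-fold change in either direction for 13758 genes (71.3%) and within a 2-fold change for 16768 (86.8%). When 50 genes each were given a known change in simulated counts for this comparison (19308 genes), 14% of those changed 1.2-fold were called. The shares were 48% at 1.5-fold, 68% at 2-fold and 96% at 4-fold, with 8 false calls among 19108 unchanged genes. The genes of every fold were changed in the same simulated counts, and many true changes make the adjusted threshold easier to pass. These shares may therefore overstate detection where few genes change.

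The 2 generations were also described side by side in a 4-group fit. Across the 19308 genes, the F1 and F2 log2 fold changes had a Pearson r of 0.05 and a Spearman rho of 0.01. This is a correlation across genes, which are not independent replicates. The direction was the same in both generations for 51.8% of genes, with 22.5% higher in both and 29.2% lower in both. Lower values were somewhat more frequent than higher ones: 54.4% of genes had a common log2 fold change below 0, and among the 4411 genes with a mean of at least 50 CPM the share was 61.9%.

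**Figure D1:**
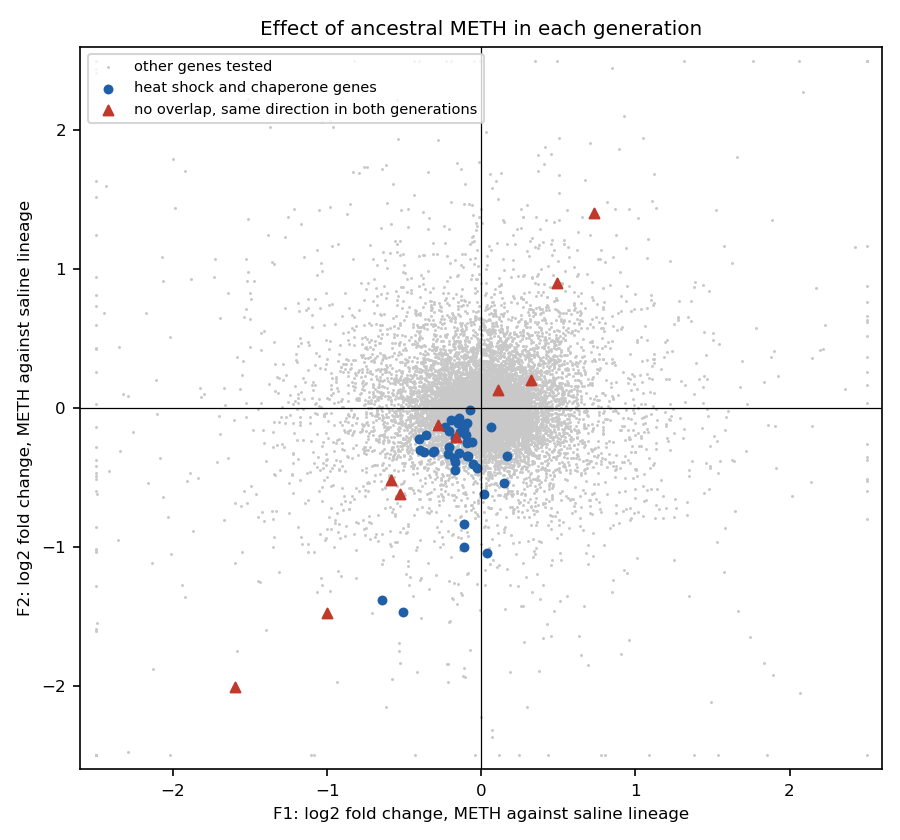
Log2 fold change of METH against saline mice in F1 (x axis) and in F2 (y axis) for the 19308 genes tested, with the 40 chaperone genes as blue circles and the 10 genes whose groups separated in the same direction in both generations as red triangles. Values beyond 2.5 are drawn at the edge (85 genes); the cloud has little slope (Pearson r 0.05), while 35 of the chaperone genes lie in the quadrant that is lower in both generations.

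The clearest separation by eye was in 10 genes (0.0518% of those tested), whose METH libraries all lay on the same side of every saline library in F1 and again in F2. Of these, 4 (0.0207%) were higher and 6 (0.0311%) lower, and 11 genes (0.057%) separated in opposite directions in the generations. Separation in the same direction was thus no more frequent than in opposite directions, so the count of 10 is no sign of a shared effect. Within F1 alone 2.9% of genes lay higher and 2.61% lower without overlap, and within F2 alone 1.12% and 1.51%. Every one of the 10 had an adjusted p of 0.962 in edgeR's test.

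B230110G15Rik (chromosome 6, 138580624 to 138599314, build GRCm38.p6 here and below), a long noncoding RNA, had the smallest p of all. It was at 1.79, 0.84, 2.49 and 2.39 CPM in F1 saline and 3.77, 3.01 and 2.59 CPM in F1 METH mice. F2 values were 1.00, 1.00, 1.25 and 1.65 CPM in saline and 3.75, 3.67, 2.85 and 2.73 CPM in METH mice. The gap was wide in F2, whereas the lowest F1 METH library lay just above the highest F1 saline library. The common log2 fold change was 1.09 (SE 0.22, 95% interval 0.63 to 1.55, unadjusted p = 1.24e-04 by edgeR), with 0.73 in F1 and 1.41 in F2. DESeq2 gave an adjusted p of 0.0106.

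Susd1 (chromosome 4, 59314202 to 59439869), a sushi-domain protein, was at 14.4, 16.2, 14.3 and 17.5 CPM in F1 saline and 19.2, 19.4 and 19.96 CPM in F1 METH mice. The F2 libraries were at 14.2, 14.4, 14.2 and 14.9 CPM in saline and 15.5, 17.9, 16.4 and 16.5 CPM in METH mice. All METH libraries were higher than the saline libraries of their generation, by a common log2 fold change of 0.26 (SE 0.06, unadjusted p = 4.27e-04 by edgeR). The noncoding LOC115487173 (chromosome 9, 58526358 to 58534015) was also higher, with a log2 fold change of 0.71 (SE 0.17).

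Among the lower genes, Stmn3 (chromosome 2, 181306459 to 181314500), a stathmin-family protein that destabilizes microtubules, was the most abundant. It was at 219, 242, 251 and 212 CPM in F1 saline and 200.4, 189 and 180.3 CPM in F1 METH mice. The F2 values were 137 to 141 CPM in saline and 116 to 136 CPM in METH mice. The groups were apart in F1 by less than the range within either group, and almost touched in F2. The common log2 fold change was -0.20 (SE 0.05, unadjusted p = 0.00129 by edgeR).

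Pycard (chromosome 7, 127991373 to 127993867), the inflammasome adaptor ASC, was at 1.70, 1.97, 1.69 and 1.94 CPM in F1 saline and 1.02, 1.63 and 1.14 CPM in F1 METH mice. The F2 libraries were at 1.95, 1.48, 2.03 and 1.32 CPM in saline and 1.27, 1.04, 0.94 and 1.17 CPM in METH mice. The common log2 fold change was -0.57 (SE 0.15). Sf3b6, a subunit of the splicing factor SF3b (-0.19, SE 0.07), and the predicted gene Gm40835 (-1.24, SE 0.31) lie near each other on chromosome 12, at 4817608 to 4827659 and 4589795 to 4593731. Gm40835 was read 5 to 20 times per library in F1 and 2 to 17 times in F2. The remaining lower genes were 3110083C13Rik (-0.55, SE 0.21) and 6430628N08Rik (-1.81, SE 0.53), the last with 0 reads in F2 METH replicates 2 and 3.

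**Figure D2:**
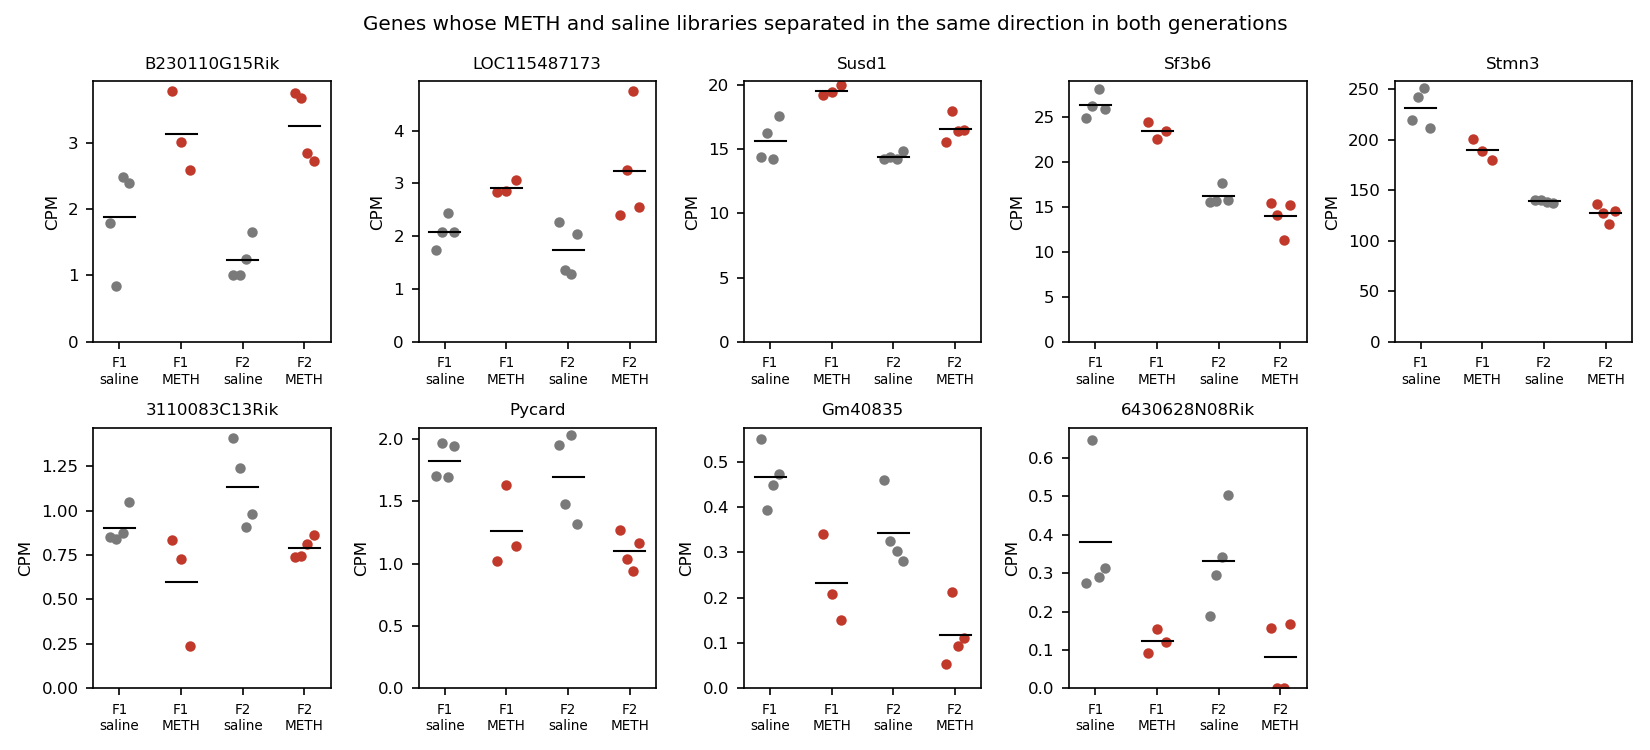
CPM of 9 of the 10 genes whose METH libraries (red) lay outside the range of the saline libraries (grey) in the same direction in F1 and in F2; each point is 1 library and each line a group mean. The separation is wide for B230110G15Rik in F2 and narrow for Stmn3 and Sf3b6 in F2.

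Leaving out predicted genes, clones and pseudogenes, the genes of smallest p had varied roles. Those lower in METH mice included both a carrier and a regulator of nuclear transport. Xpo1, the exportin that carries proteins and RNAs out of the nucleus, was at 56.5 to 65.5 CPM in F1 saline and 54.0 to 57.3 CPM in F1 METH mice. F2 levels were 69.8 to 77.7 CPM in saline and 54.9 to 64.8 CPM in METH mice, so the groups were apart in F2 and overlapped in F1 (common log2 fold change -0.22, SE 0.06). Rangap1, which activates the GTPase of Ran, had a log2 fold change of -0.19 (SE 0.05) with the reverse layout: its groups were apart in F1 (169 to 204 against 159 to 164 CPM) and overlapped in F2 (174 to 193 against 163 to 176 CPM). Hmga1, an architectural chromatin protein, was at -0.21 (SE 0.05), and Crybb1, a crystallin that microglia express in brain, at -0.77 (SE 0.20). Rnf227 (-0.26, SE 0.07) and Ankrd34a (-0.22, SE 0.06) completed the lower genes beside Pycard and Stmn3.

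Those higher in METH mice included Ulk4, a member of the ULK kinase family (log2 fold change 0.61, SE 0.14). It was at 3.74 to 6.10 CPM in F1 saline and 7.26 to 7.64 CPM in F1 METH mice, without overlap, and at 3.87 to 6.68 against 6.60 to 9.74 CPM in F2, where 1 METH library lay inside the saline range. Myo5c, a class V myosin motor, was at 0.73 (SE 0.19), with 1.01 in F1 and 0.48 in F2. Cntn6, a neuronal adhesion molecule, was at 0.29 (SE 0.08) and Bbs7, a subunit of the BBSome of primary cilia, at 0.19 (SE 0.05). Ccdc187 (0.30, SE 0.09) and the P5-type ATPase gene Atp13a5 (0.31, SE 0.09) followed. Pcdhga7 (0.24, SE 0.07) is a clustered protocadherin that shares exons with its neighbours, so its level is uncertain.

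Some low-count noncoding genes had wide differences. The pseudogene Gm8518 (chromosome 14, 50978185 to 50978936) was read 2, 1, 45 and 77 times in F1 saline and 1 to 3 times in F1 METH libraries. In F2 it was read 7, 37, 73 and 33 times in saline and 2 to 5 times in METH libraries. High reads were thus limited to 5 saline libraries, and F1 saline replicates 1 and 2 lay within the METH range (common log2 fold change -3.53, adjusted p = 0.962 by edgeR and 0.0106 by DESeq2). Gm17879 (chromosome 17, 6354562 to 6355579) had a like layout, with 3 to 67 reads in F1 saline, 8 to 154 in F2 saline and 4 to 9 in METH libraries. The noncoding 1700041B01Rik (chromosome 15, 78670638 to 78682066) was read 0 times in all 8 saline libraries, 23, 19 and 30 times in F1 METH libraries, and 24 times in F2 METH replicate 1. It had 0 reads in the other F2 METH libraries. Aox4 (chromosome 1, 58210397 to 58268600), called in the averaged fit, was read 24, 18, 29 and 23 times in F1 saline and 0 times in all 3 F1 METH libraries, but 10 to 29 times in F2 saline and 14 to 19 times in F2 METH libraries. Its common log2 fold change was -1.46 (SE 0.69). The average of -3.77 joined -7.58 in F1 with 0.03 in F2. The size of the F1 value, and so of the average, depends on the small count added to the libraries at 0. A pseudogene's reads can come from its parent gene, so these levels are uncertain.

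The heat shock and chaperones list had 1 direction throughout. All 40 of its tested members were lower in METH mice, 26 of them at an unadjusted p under 0.05 (background 54.4% lower and 2.8% lower at that p), and 0 were called. The median log2 fold change was -0.23, beside -0.01 over all genes tested. The listed genes had a median level of 98.1 CPM, and among all genes of at least 50 CPM 61.9% were lower, with a median of -0.02. Within generations the median was -0.14 in F1, where 35 were lower, and -0.31 in F2, where all 40 were lower; over all genes 52.1% were lower in F1 and 54.6% in F2. These genes are known to vary together, so the members are not separate observations. The list was also chosen with earlier results of these data known, so its counts are a description and not independent support. DESeq2 put 28 and limma-voom 25 of them at an unadjusted p under 0.05, and neither called any.

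The size of this difference rested in part on 2 libraries. The mean log2 CPM of the heat shock and chaperones list was 6.39, 6.38, 6.30 and 6.16 in F1 saline and 6.23, 6.12 and 6.09 in F1 METH mice. In F2 it was 6.51, 6.88, 6.69 and 6.14 in saline and 6.37, 6.13, 6.20 and 6.17 in METH mice. Replicate 4 of each saline group lay among the METH libraries, so the groups overlapped in both generations, and F2 saline replicates 2 and 3 were the highest of all. Without these 2 libraries 36 of 40 members were lower, 8 at an unadjusted p under 0.05, with a median of -0.13. Leaving out F2 saline replicate 2 alone gave 38 lower, 16 at that p and a median of -0.18, and leaving out F2 METH replicate 2 gave 40 lower, 16 at that p and -0.20. With the libraries of Slc17a7 above 100 CPM also left out, an alternative added after seeing the data, 36 were lower, 5 at that p.

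By role, the inducible HSP70 genes had the largest differences and the widest spread. Hspa1b was at 12.1, 10.1, 11.2 and 7.34 CPM in F1 saline and 7.70, 6.56 and 5.29 CPM in F1 METH mice. The F2 values were 15.8, 47.3, 29.6 and 8.11 CPM in saline and 10.4, 9.37, 10.8 and 8.21 CPM in METH mice. Its common log2 fold change was -1.05 (SE 0.28, unadjusted p = 0.00181 by edgeR), with high values in 2 F2 saline libraries and overlap at replicate 4 of both saline groups. Hspa1a, a near-identical copy, was at -1.04 (SE 0.33), and reads of the pair cannot be assigned with certainty. Hspa8, the constitutive HSP70 that uncoats clathrin vesicles at synapses, was at 728 to 1012 CPM in F1 saline against 619.8 to 729 CPM in F1 METH mice. It was at 735 to 1068 CPM in F2 saline against 653 to 984 CPM in F2 METH mice, with a common log2 fold change of -0.35 (SE 0.10).

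HSP90 and its helpers were lower in both generations. Stip1 was at 111, 114, 104 and 85.0 CPM in F1 saline and 85.3, 85.2 and 79.5 CPM in F1 METH mice, and at 126, 144, 119 and 93.6 CPM in F2 saline and 113, 90.7, 95.1 and 86.9 CPM in F2 METH mice. Its log2 fold change was -0.32 (SE 0.09), with -0.31 in F1 and -0.32 in F2. Fkbp4 was at -0.31 (SE 0.09), with -0.31 in both generations, and Ahsa1, which stimulates the HSP90 ATPase, was at -0.31 (SE 0.10), with -0.41 in F1 and -0.23 in F2. Hsp90aa1, the inducible cytosolic HSP90, was at -0.27 (SE 0.08; -0.36 in F1, -0.19 in F2), and Hsp90ab1, the constitutive form, at -0.18 (SE 0.07; -0.24 in F1, -0.13 in F2). Hsph1, an HSP110 nucleotide exchange factor, was at -0.34 (SE 0.11). The groups of all these genes overlapped in F2, where METH replicate 1 was high, and those of Fkbp4 and Ahsa1 were apart in F1.

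The chaperones of the endoplasmic reticulum differed mainly in F2. Hspa5 (BiP) was at 142 to 209.7 CPM in F1 saline and 145 to 188 CPM in F1 METH mice, inside the saline range. Its F2 levels were 285, 550.3, 362 and 154 CPM in saline and 195, 174, 220.0 and 169 CPM in METH mice. The common log2 fold change was -0.50 (SE 0.21), with -0.11 in F1 and -0.83 in F2. Sdf2l1 had -0.11 in F1 and -1.003 in F2, and Manf, a secreted factor of the same stress response, 0.02 and -0.62. Hsp90b1 (-0.28, SE 0.09), Calr (-0.28, SE 0.10) and Pdia6 (-0.32, SE 0.11) were lower in both. In the cage-forming complexes, Cct5 was at -0.19 (SE 0.06), and Hspe1 and Hspd1, which share a promoter region, at -0.24 (SE 0.09) and -0.16 (SE 0.07). The small heat shock protein gene Hspb1 was at 0.04 in F1 and -1.04 in F2.

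**Figure D3:**
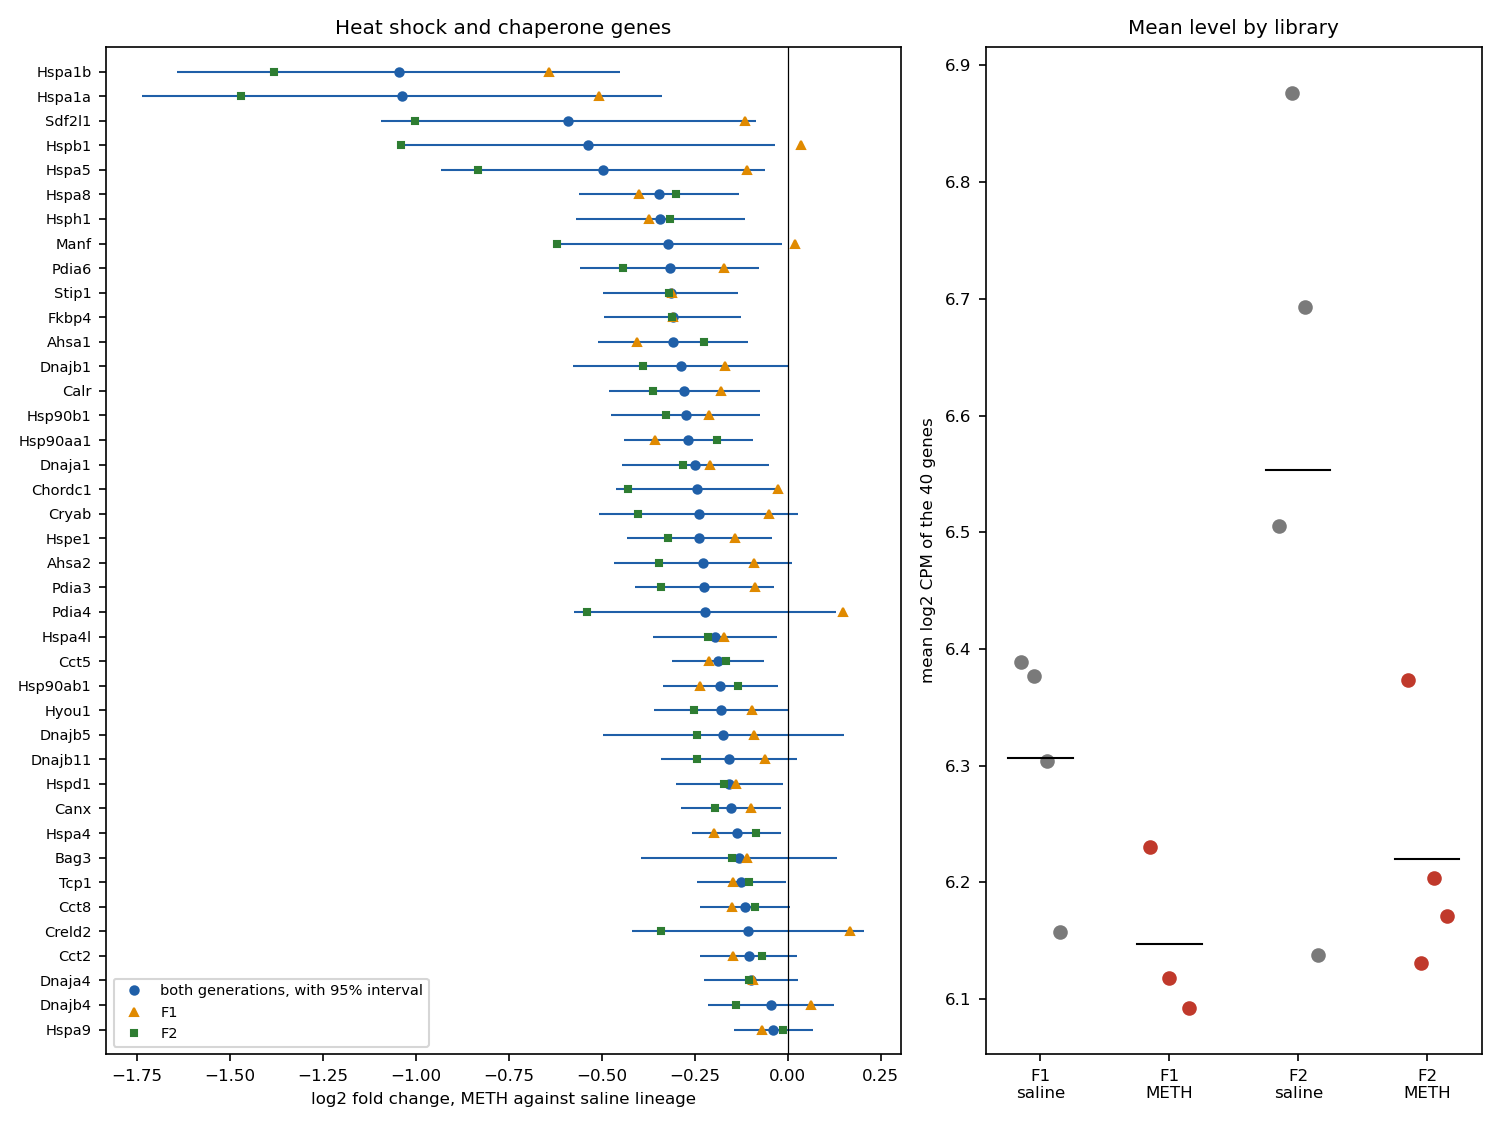
Left, common log2 fold change of METH against saline mice with its 95% interval for the 40 chaperone genes, with the F1 and F2 values; right, mean log2 CPM of the 40 genes in each library (grey saline, red METH, lines group means). All 40 common values lie below 0, and replicate 4 of each saline group (6.16 and 6.14) lies among the METH libraries.

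Genes of protein synthesis and respiration were also mostly lower, by little. Of 73 nuclear-encoded respiratory chain subunits, 72 were lower and 5 passed an unadjusted p under 0.05, with a median of -0.09 (-0.06 in F1, -0.12 in F2). Of 79 cytosolic ribosomal proteins, 75 were lower and 6 passed that p, with a median of -0.11 (-0.04 in F1, -0.17 in F2). Beside these stand a share of 61.9% lower and a median of -0.02 among all genes of at least 50 CPM. Over all genes tested, 2.8% were lower at that p. In F2 the list mean of the ribosomal genes was 6.10 to 6.46 log2 CPM in METH and 6.41 to 6.55 in saline mice, and in F1 it was 7.20 to 7.41 and 7.16 to 7.61. The groups overlapped in both generations. Leaving out single libraries moved the number of cytosolic ribosomal proteins at that p between 0 and 22, and without F2 saline replicates 2 and 3 it was 0. Ndufa11 (-0.19, SE 0.07) and Atp5o (-0.15, SE 0.06), subunits of complex I and ATP synthase, were examples. Ribosomal protein genes have many processed copies, and Rps2, at -0.98, is uncertain for that reason.

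The 13 protein genes of the mitochondrial genome went the other way, all 13 higher (background 45.6%), with a median of 0.13. Of these, 2 had an unadjusted p under 0.05 (background 1.94% higher at that p). ND4, a complex I subunit, was at 0.18 (SE 0.06) and CYTB, of complex III, at 0.18 (SE 0.08). The list mean was 11.49 to 11.70 log2 CPM in F1 saline and 11.77 to 11.87 in F1 METH mice, without overlap. In F2 it was 11.40 to 11.66 in saline and 11.35 to 11.71 in METH mice, with the METH libraries spanning the saline range. The difference was thus carried by F1, with a median of 0.27 there and 0.03 in F2.

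**Figure D4:**
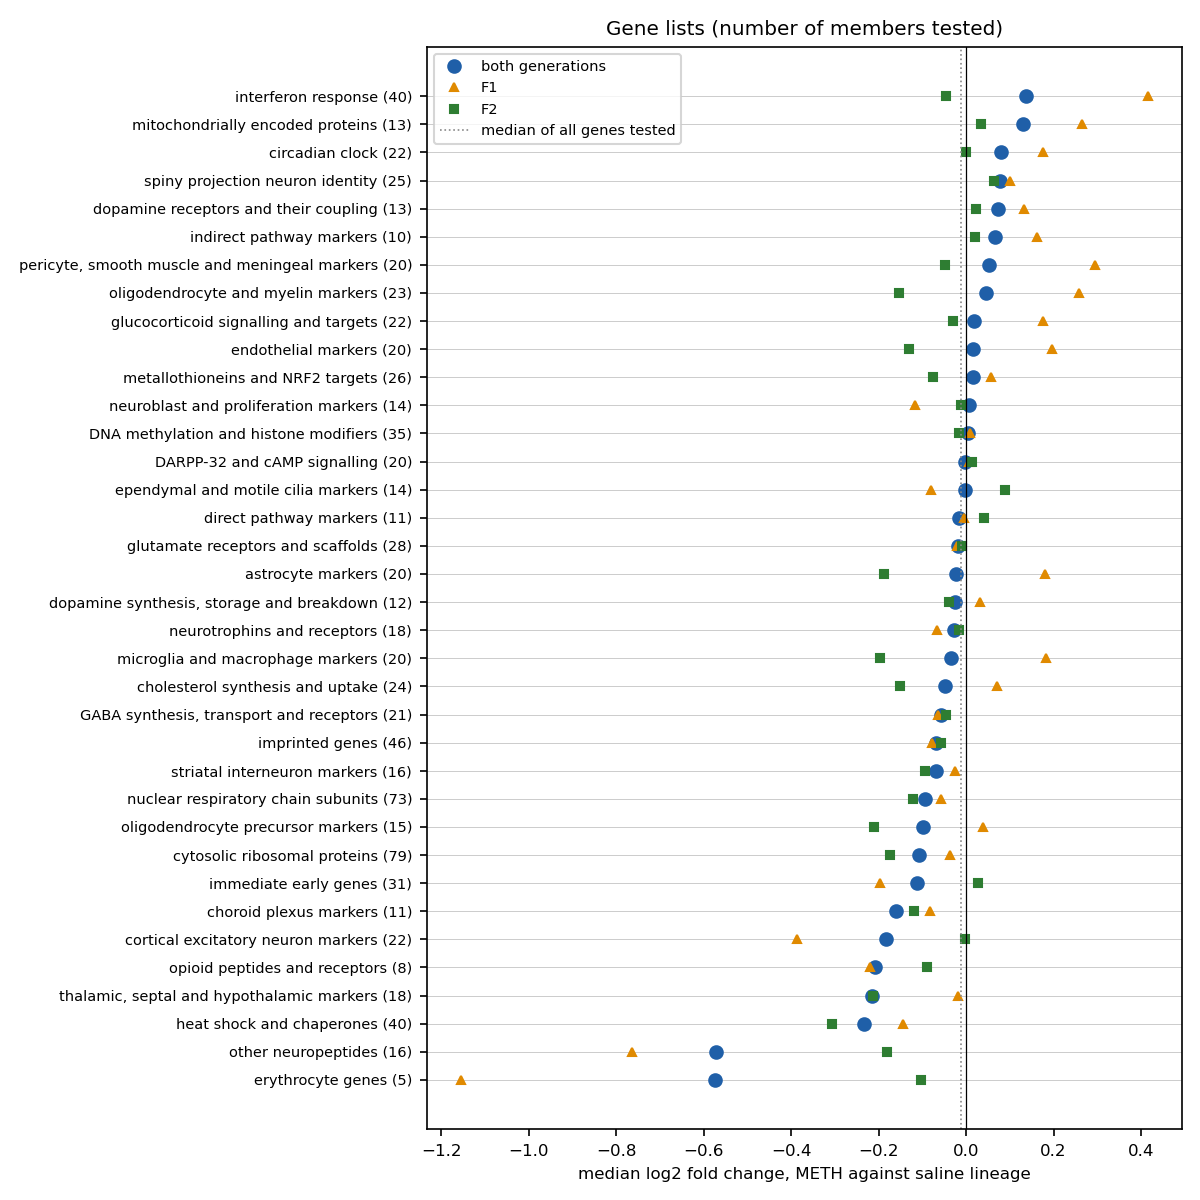
Median log2 fold change of METH against saline mice for 36 gene lists (number of members tested in brackets), as the common effect (blue circles) and in F1 (triangles) and F2 (squares); the dotted line is the median of all genes tested. The chaperones, respiratory chain and ribosomal lists are below the dotted line in both generations, while the glial and vessel lists lie on opposite sides.

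Genes of spiny projection neurons were slightly higher as a list. Of 25 identity genes, 23 were higher (background 45.6%), 0 at an unadjusted p under 0.05, with a median of 0.08. Inf2 (0.16, 95% interval -0.03 to 0.35) and Adcy5, the striatal adenylyl cyclase (0.12, interval -0.06 to 0.29), were among them. The cortical excitatory neuron markers were in the opposite direction, with 19 of 22 lower (background 54.4%) and a median of -0.18. In F1 18 were lower with a median of -0.39, while in F2 11 were lower and 11 higher with a median of 0.00. Their summed level was 3255 to 5286 CPM in F1 saline, 3580 to 5516 in F1 METH, 3694 to 4075 in F2 saline and 3399 to 4247 CPM in F2 METH mice. With the mean of the cortical markers as a covariate, 21 of the spiny projection neuron identity genes were higher with a median of 0.06. Without the libraries of Slc17a7 above 100 CPM, 12 of the cortical excitatory neuron markers were higher and 10 lower, with a median of 0.00. Slc17a7 is itself on this list, so libraries high in a listed marker were left out by construction.

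Neuropeptide genes outside the opioid family were lower with a wide spread. Of 16 tested, 14 were lower, 5 at an unadjusted p under 0.05 (background 54.4% and 2.8%), with a median of -0.57 (-0.76 in F1, -0.18 in F2). Nts, which encodes neurotensin, was at 6.18, 14.98, 4.05 and 3.41 CPM in F1 saline and 3.46, 2.31 and 2.62 CPM in F1 METH mice. The F2 levels were 6.44, 7.498, 10.5 and 4.73 CPM in saline and 4.54, 4.06, 4.32 and 4.56 CPM in METH mice. Its groups were apart in F2 and overlapped by 1 library in F1 (common log2 fold change -1.02, SE 0.28). Crh, corticotropin-releasing hormone, was at -1.08 (SE 0.36) and Tac2, neurokinin B, at -1.22 (SE 0.52).

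Markers of thalamus, septum and hypothalamus, which are also neuropeptide-rich regions beside the striatum, were at the same time lower in 12 of 18 cases, 4 at that p (the same background), with a median of -0.21. The other 6 were higher, by up to 0.44. In F1 10 were lower and 8 higher with a median of -0.02, while in F2 15 were lower with a median of -0.21. The lower ones included Slc17a6 (-1.61), the glutamate transporter of subcortical neurons, and Calb2 (-1.20, SE 0.38), which was highest in F1 saline replicate 2 at 18.2 CPM. The summed level of these 18 markers was 143 to 197 CPM in F1 saline, 143 to 197 in F1 METH, 178 to 198 in F2 saline and 159 to 178 CPM in F2 METH mice. Lhx9 had few reads in any group: 0 in all 3 F1 METH libraries and 0, 18, 10 and 7 in F1 saline. In F2 it was read 12, 4, 0 and 37 times in saline and 0, 2, 3 and 4 times in METH libraries. Leaving out single libraries moved the median of the other neuropeptides between -0.84 and -0.13. With the cortical marker mean as a covariate it was -0.43. The part of neighbouring tissue in these values was not tested.

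Imprinted genes, which are expressed from 1 parental allele, had 33 of 46 lower (71.7%) and 13 higher, with 8 lower and 0 higher at an unadjusted p under 0.05 and a median of -0.07. Over all genes 54.4% were lower, 61.9% of those of at least 50 CPM, and 2.8% were lower at that p. Usp29, which is expressed from the paternal allele, was at 41.4, 46.4 and 27.8 CPM in F1 METH against 44.2 to 52.2 CPM in F1 saline mice, and at 43.6 to 60.0 against 52.4 to 66.4 CPM in F2, with a log2 fold change of -0.28 (SE 0.10). Nap1l5, also paternally expressed, was at -0.28 (SE 0.10), and Ube3a, maternally expressed in neurons, at -0.15 (SE 0.06). Dlk1, Ndn and Nnat, 3 more paternally expressed genes, were at -0.70, -0.14 and -0.25. Their groups overlapped in at least 1 generation. Without the libraries of Slc17a7 above 100 CPM, 2 imprinted genes had an unadjusted p under 0.05.

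Clock genes had 15 of 22 higher, 4 at an unadjusted p under 0.05 (background 45.6% higher and 1.94% higher at that p). The 4 were Nr1d1, the repressor REV-ERBα (0.38, SE 0.14), its co-regulated Dbp (0.34, SE 0.14), Bhlhe41 (0.29, SE 0.11) and Ciart (0.51). Nr1d1 was at 55.4, 55.4, 90.2 and 100.3 CPM in F1 saline and 114, 103 and 95.3 CPM in F1 METH mice, and at 80.0 to 119.7 against 85.4 to 142 CPM in F2. The clock list had a median of 0.08, with 0.18 in F1 and 0.00 in F2.

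Interferon response genes had 32 of 40 higher, 5 at an unadjusted p under 0.05, with a median of 0.14 (background 45.6% higher and 1.94% higher at that p). This common value came from F1, where the median was 0.42, while in F2 it was -0.05. Within F1, METH replicate 1 stood apart, with the listed genes adding up to 279 CPM. METH replicates 2 and 3 reached 194 and 189 CPM, inside the F1 saline range of 162 to 197 CPM. On the log2 scale the averages of METH replicates 1 to 3 were 1.91, 1.25 and 1.14, beside 0.84 to 1.18 for F1 saline. Gbp3, an interferon-induced GTPase, was at 2.53 to 3.36 CPM in F1 saline and 8.19, 5.26 and 4.36 CPM in F1 METH mice, without overlap, but at 2.72 to 4.35 against 3.14 to 4.20 CPM in F2. Irf1, the transcription factor, was at 0.33 (SE 0.13) and Tap1, of the peptide transporter for antigen presentation, at 0.45 (SE 0.20).

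For glia and vessels the common effect hid values of opposite sign. The 23 oligodendrocyte and myelin markers were all higher in F1 (median 0.26), and 22 were lower in F2 (median -0.15), so that the common median was 0.05. Astrocyte markers had medians of 0.18 in F1 and -0.19 in F2, microglia and macrophage markers 0.18 and -0.20, and endothelial markers 0.20 and -0.13. None of the listed astrocyte, microglia and macrophage, or oligodendrocyte and myelin markers had a common effect at an unadjusted p under 0.05. The difference between generations was not tested here. In bulk tissue, fewer cells of a type and less RNA per cell cannot be told apart.

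None of a fixed set of genes for dopamine, opioid and glutamate signalling, plasticity and stress stood out. Of 22, 21 could be tested, and 7 were higher, 14 lower and 0 at an unadjusted p under 0.05 (background 4.74%). Slc6a3, the dopamine transporter, which is made in midbrain neurons, had too few reads. Drd1, the D1 receptor, was at 161 to 237 CPM in F1 saline and 173 to 256 CPM in F1 METH mice, and at 212 to 301 against 247 to 286 CPM in F2. Its groups overlapped in both, and the 95% interval of the log2 fold change was -0.14 to 0.28. The D2 receptor Drd2 had an interval of -0.10 to 0.38 and the adenosine receptor Adora2a one of -0.06 to 0.38.

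Several of these intervals were narrow. Maoa, which breaks dopamine down, had an interval of -0.16 to 0.10. The glutamate receptor subunit genes Gria1 and Grin2b had -0.16 to 0.09 and -0.12 to 0.13, and the glucocorticoid receptor gene Nr3c1 had -0.19 to 0.05. Larger differences could not be told from 0 for genes of wide spread. Fos, an immediate early gene, had an interval of -1.10 to 0.32, with -1.16 in F1 and 0.22 in F2, and Bdnf, a neurotrophin, -2.23 to 1.25.

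Opioid genes had 6 of 8 lower (background 54.4%) and a median of -0.21. Oprm1, the mu receptor, was at 2.43 to 3.17 CPM in F1 saline and 1.55 to 2.91 CPM in F1 METH mice, and at 3.16 to 5.85 against 3.06 to 4.76 CPM in F2. The groups overlapped in both generations, and its interval was -0.62 to 0.03. Pdyn, the prodynorphin gene of direct pathway neurons, was at -0.24 (interval -0.57 to 0.08), and Penk, the proenkephalin gene of indirect pathway neurons, at 0.05 (interval -0.17 to 0.27). Of 35 genes for DNA methylation and histone modification, 18 were higher and 17 lower, with a median of 0.00. Dnmt3a, a de novo DNA methyltransferase, had an interval of -0.03 to 0.26.

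**Figure D5:**
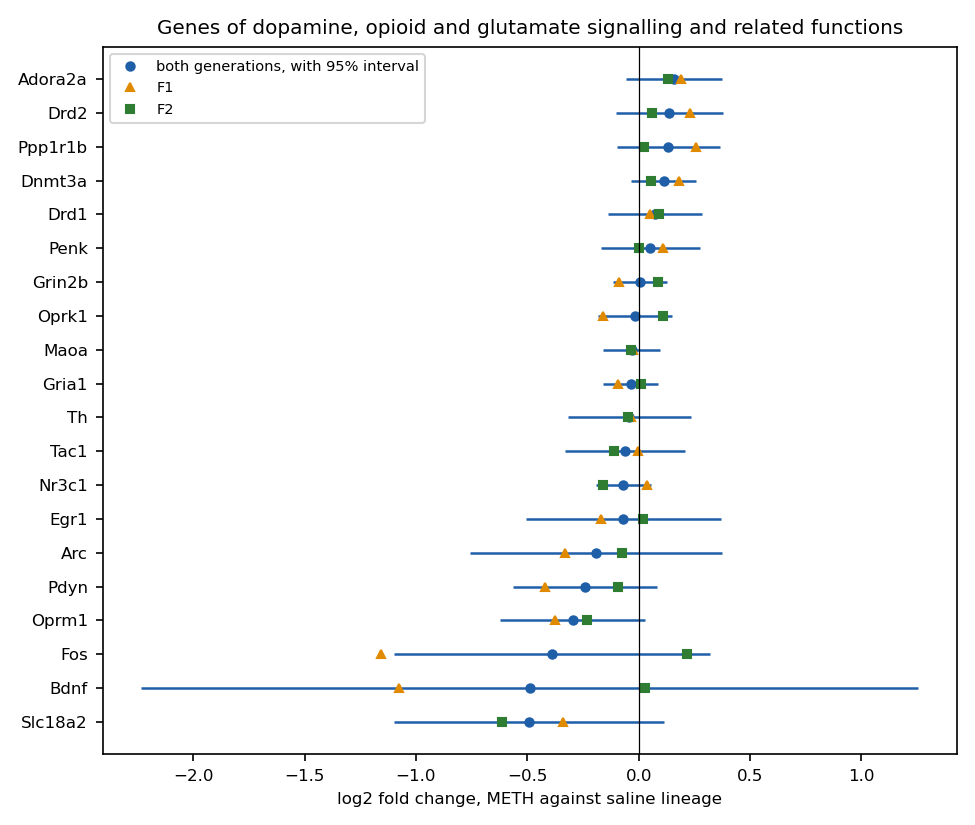
Common log2 fold change of METH against saline mice with its 95% interval (blue), and the F1 (triangles) and F2 (squares) values, for 20 of the genes tested. All intervals drawn include 0; that of Bdnf is the widest and those of Maoa, Gria1 and Grin2b are among the narrowest.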

How the data were processed

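RNA from 15 male striata was sequenced. Per the submitters' processing notes, the tools were StringTie 2.1.3b, HISAT2 2.1.0, Trimmomatic and bcl2fastq 2.20.0, with build mm10; strandedness and the derivation of the counts were not given in the sources used here. Each generation has a deposited table of 45777 features with columns of counts, TPM and FPKM, per the file headers. The deposited counts, whole numbers with totals that differ between libraries, were joined by gene ID and tested as such. The authors computed TPM and FPKM, of which TPM served only in alternatives and FPKM in none. Because strandedness was not given, reads of genes that overlap on opposite strands may be shared.

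Counts were fitted with edgeR 4.0.16 in R 4.3.3 (TMM, filterByExpr with a minimum count of 10, glmQLFit and glmQLFTest) with terms for generation and lineage, and p-values were adjusted by Benjamini-Hochberg over 19308 genes with a threshold of 0.05. Generation itself, which coincides with the table, has no test here. A 4-group model on the same counts gave F1 and F2 values. Intervals are 95%. List means used log2 CPM with a prior count of 2. The members and the 36 gene lists were chosen with earlier results of these data known. Named were the 8 genes of smallest p per direction that are not predicted genes, clones or pseudogenes, a fixed set of 22, up to 3 members per list by smallest p, and up to 8 genes per direction without overlap in both generations. Other genes are named as examples of a list or were chosen after their values were seen. Lists are described by counts and medians only. Some genes within these counts are not reported here.

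Alternatives were DESeq2 1.42.0, limma-voom and limma-trend on log2 TPM (limma 3.58.1), other scalings and filters, marker or animal-number terms, a replicate block, and leaving out libraries. No replicate pair agreed within sampling noise (chi-square per degree of freedom 15.4 to 63.1). The fit was tested on simulated data drawn independently per gene, so detection in real libraries may differ. Positions are 1-based, from the RefSeq table of GRCm38.p6 (equal to mm10), with 19262 of the tested genes placed. Plots were made in matplotlib 3.10.9 under Python 3.11.15.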

Additional observations from a re-analysis of the deposited data

Results flagged for a closer look

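Among 262 sets of 4 libraries (52 genes and the list means, in the groups of 4), 12 had 1 library far from the other 3, with a gap to the nearest of them above 0.829 of the range. Chance flags about 1 in 20 such sets.

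Of the genes, 1700041B01Rik was at 0.634 CPM in F2 METH replicate 1 and at 0 in the others. 3110083C13Rik was at 1.05 CPM in F1 saline replicate 4, against at most 0.873 in the others. 6430628N08Rik reached 0.646 CPM in F1 saline replicate 2, beside 0.315 as the next value. Bdnf reached 6.35 CPM in F2 saline replicate 4, which is also a library of high Slc17a7, beside 1.19 as the next value. Sf3b6 was at 17.7 CPM in F2 saline replicate 3, beside 15.8.

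Of the list means, those of F1 saline replicate 3, the library with the highest Slc17a7, were the lowest for direct pathway markers (5.77 log2 CPM), dopamine receptors and their coupling (7.59) and glucocorticoid signalling and targets (4.51). In F2 METH replicate 1 the means of circadian clock genes (5.94), glutamate receptors and scaffolds (6.78) and striatal interneuron markers (3.25) were the lowest of the group. The mean of the DNA methylation and histone modifiers was the highest in F2 METH replicate 3 (5.74). Their part in the common effect was not tested.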

How the results depend on the processing

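The count of 0 called genes held under other scaling, filters, limma-voom with or without quality weights, TPM, covariates, no generation term and each library left out (smallest adjusted p 0.386 to 1.00 over the libraries). DESeq2 called 3 genes and the mean of the F1 and F2 effects 1. With the replicate block the count was 0 (smallest adjusted p 0.535); only 1 of 7 pairs of METH and saline libraries with the same number correlated above 0.1 (r -0.07 to 0.35), so the numbers were not taken to pair the animals. Genes at an unadjusted p under 0.05 numbered 915 in the reported fit, 1404 with the block, 599 without a generation term and 604 in the alternative added after seeing the data. The number of genes without overlap was 10 as reported and 15 to 44 with 1 library left out, 36 without F2 saline replicates 2 and 3, 297 without the libraries of Slc17a7 above 100 CPM, and 1271 without both. It grows by construction, since fewer libraries overlap less often. Of list medians, 1182 of those recomputed moved by less than the spread between replicates and 2 by more. Of values of named genes, 4676 were counted as the same, 7 moved by more than that spread and 4 passed the threshold. The 4 were 3 with DESeq2 and Aox4 with the mean of the F1 and F2 effects. For genes named for a small p, for no overlap or after their values were seen, the same meant only an unchanged direction, whatever the size. In simulated counts 14% of genes changed 1.2-fold were called, so most differences of that size would be missed in 15 libraries of this depth and spread.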

Other observations

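Blood, barrier and precursor genes gave further values. The 5 erythrocyte genes tested were all lower in METH mice (median -0.57, background 54.4%), with a summed level of 839 CPM in F1 saline replicate 4 and 56.2 to 192 CPM in the other libraries. Of 20 endothelial markers, 11 were higher and 9 lower (background 45.6% higher), with 17 higher in F1 and 16 lower in F2. Of these 20, 2 had an unadjusted p under 0.05 by edgeR (background 1.94% higher at that p), and 0 were called. The 2 were Abcb1a, the P-glycoprotein drug pump of the blood-brain barrier (0.21, with 0.40 in F1 and 0.04 in F2), and the anion transporter Slco1a4 (0.23, with 0.40 in F1 and 0.08 in F2). Of 15 oligodendrocyte precursor markers, 11 were lower (background 54.4%), 2 of them at an unadjusted p under 0.05 by edgeR (background 2.8% lower at that p). Within generations, 11 were higher in F1 (median 0.04) and 14 lower in F2 (median -0.21). The common values included those of Tnr, an extracellular matrix glycoprotein (-0.14), and C1ql1 (-0.24). Of 31 immediate early genes 26 were lower (background 54.4%), with 26 lower in F1 (median -0.20) and 20 higher in F2 (median 0.03), a difference between generations that was not tested. The number lower in the common effect was 17 without F2 saline replicates 2 and 3 and 17 with the replicate block.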
